A study of Mus musculus with 7 samples.

Results

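The V segments described here lie from 500 kb to 1 Mb upstream of VH81X in the mouse Igh locus, and they were read through their joins to JH4. A join was counted where the deposited junction lay on chromosome 12 between positions 115336378 and 115836377, in the deletional orientation (Strand 1). Joins within 100 bp of positions 115453076 and 115623228, a VH2 and a VH11 segment described only where a result turns on them, were left out. Positions with gaps of at most 300 bp, pooled over all 7 libraries, formed a segment where at least 10 lines fell in it. This gave 25 segments of the 158 V segments found across the locus in the same way, and each is named V_ with its commonest join position. The 25 held 18586 of the 18646 lines of the window, and the other 60 lines lay at 29 scattered positions. The share of V joins is the percent of all deletional lines from just before VH81X to the last V segment of the locus, 95203 lines in all, or 91084 with the joins of VH81X (114836268 to 114836504) left out. Positions are those of the files, called mm9 in the submitters' processing notes and not checked against that assembly.

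The study sequenced genomic DNA by high-throughput genome-wide translocation sequencing (HTGTS), a method that captures whatever DNA has been joined to a chosen bait, in this case the coding end of JH4. The cells were bone marrow pro-B cells from mice of the 129SVE background aged 4 to 6 weeks, sorted as B220+CD43highIgM-. WT (n = 3) was set against VH81X-CBEscr/scr (n = 4), a genotype read here as homozygous for a scrambled CTCF-binding element beside VH81X. Both genotypes share strain, age range, sort and bait, and no treatment is given. Whether each library came from its own mouse is not stated in the labels, and p-values therefore cover the spread between these libraries alone. All rearrangements are of DNA, so markers of the sorted cell type could not be checked here.

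The Igh locus of developing B cells is assembled by RAG, which cuts at a recombination signal sequence beside each V, D and JH segment. A V signal has a heptamer next to the coding end, a long spacer and a nonamer, and the DNA between the V and the rearranged DJH segment is deleted. V segments fall into families by sequence, and the families are partly intermingled along the locus. A CTCF-binding element is a site where the protein CTCF can halt the loop extrusion that brings distant V segments to the RAG-bound DJH region. The join either keeps the JH frame in register with the V frame or shifts it, and many V segments are pseudogenes that cannot encode a chain in any register.

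The libraries held 31986 to 46915 lines each and 10961 to 16874 V joins, of which 1987 to 3352 fell in the window. With 3 counts as the limit for a count of 0, a segment without a line in a library could hold up to 0.0178% (deepest library) or 0.0274% (shallowest). Between 71.8% and 84.8% of lines were marked as duplicates, and all lines were counted unless distinct joins are named. A distinct join is 1 combination of V position, JH4 position and the bases between them, and the window held 629 to 2305 of them per library. WT replicate 2 had the fewest, equal to 31.7% of its window lines. It also held the lowest share of 12 of the 25 segments and the highest share of 7, whereas each other library held the lowest share of 1 to 3 and the highest of 1 to 5. The read names gave 4 sequencing runs, none of which held both genotypes, so run and genotype cannot be told apart. Intervals and limits cover counting error only, because amplified reads carry no molecular identifiers and may copy 1 molecule. VH81X itself took 9.42% ± 0.622 of V joins in WT (SD, n = 3) but 0.181% ± 0.140 in the mutant (SD, n = 4).

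The signal sequences of the window could be read because some joins kept the inverted orientation. Reads of such joins run outward from the V coding end through its signal, and 79 lines of this kind (37 distinct) lay at 14 of the segments. In 12 of them the reads spanned the whole signal of 39 bases. Each is shown 5′ to 3′ on the V coding strand for the most used segments and for the pairs compared later. The first capitals mark the codon of the conserved framework cysteine, the second the heptamer and the last the 9 bases at the nonamer place. That place was set by a fixed spacer of 23 bases and not by a match to a nonamer. In the VH5, VH9 and VH14 segments shown the 9 bases did not start with ACA, unlike the others, and may not be the nonamer itself.
V_115364195: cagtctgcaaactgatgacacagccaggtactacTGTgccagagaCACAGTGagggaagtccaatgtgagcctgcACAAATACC
V_115402886: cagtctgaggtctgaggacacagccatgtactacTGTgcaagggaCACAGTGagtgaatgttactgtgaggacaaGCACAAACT
V_115427676: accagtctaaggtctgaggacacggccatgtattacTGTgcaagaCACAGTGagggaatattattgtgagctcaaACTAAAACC
V_115470146: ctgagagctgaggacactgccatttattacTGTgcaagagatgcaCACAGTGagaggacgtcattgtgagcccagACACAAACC
V_115560450: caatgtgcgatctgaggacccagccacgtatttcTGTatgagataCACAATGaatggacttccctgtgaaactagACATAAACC
V_115635402: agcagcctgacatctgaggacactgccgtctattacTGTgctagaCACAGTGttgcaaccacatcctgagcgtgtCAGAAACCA
V_115739254: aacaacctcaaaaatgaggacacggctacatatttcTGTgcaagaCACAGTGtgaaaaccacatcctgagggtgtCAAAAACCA
V_115768765: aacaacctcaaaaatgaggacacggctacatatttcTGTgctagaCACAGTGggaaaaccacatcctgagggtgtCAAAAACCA
V_115810681: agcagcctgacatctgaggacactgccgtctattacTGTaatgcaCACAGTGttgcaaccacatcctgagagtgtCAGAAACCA
Each signal was placed at the best match to the heptamer CACAGTG that starts with CAC near the commonest join, on the V coding strand only. The full heptamer was present in 11 of the 12 signals, 91.7%, against 40 of the 50 signals read in the same way elsewhere in the locus, 80%. The exception was V_115560450, the VH11 segment, whose heptamer read CACAATG. The VH11 segment at 115623228 had the same heptamer, and its 39 signal bases differed from those of V_115560450 at 0 places. Signals of the 3 VH14 segments that were read differed from each other at 1 base, and those of 3 VH9 segments at 1 or 2 bases. The 2 VH5 segments, V_115402886 and V_115427676, differed at 9 of 39 signal bases. The first signal bases of V_115739254 rest in part on deletional reads, since 36 of its 39 bases came from inverted ones. Few reads stand behind each signal, from 1 to 13 lines.

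Sequence placed 23 of the 25 segments in families, by at least 80% identity over up to 240 bases. The VH5 and VH2 groups were tied to named segments elsewhere in the locus, and the other family names were given from their framework sequences and not from a reference file. Among the 25 were 5 VH9, 4 VH14, 4 VH12, 2 VH3, 2 VH4, 2 VH5 and 2 VH7 segments, with 1 VH2 and 1 VH11 segment. VH9 and VH12 segments lay between 823 and 932 kb upstream of VH81X, and VH14 segments were spread from 665 to 974 kb. With the excluded VH2 and VH11 segments skipped, neighbours among the 25 were 17.6 kb apart at the median, with a range from 4.87 to 42.5 kb. Members of some families were close copies of each other, with 94.6% to 99.6% identity among the VH9 segments and 94.6% to 97.1% among the VH14 segments. Identity was lower in VH5 (86.25%), VH7 (87.9%) and VH12 (85.4% to 95.2%). Of the window's lines, 99.9% matched their own segment better than any other, against 90.4% of lines at the other V segments. Each segment's sequence was built from its own lines, so this match cannot show that lines of close copies were placed correctly. Identity was measured among these segments, the excluded ones and those nearer to VH81X, and segments farther than 1 Mb upstream were not compared. Within that set V_115376250 had no family, its nearest segment sharing 72.5% of bases. V_115622575 was unlike any V segment compared, with a nearest identity of 54.2%, no V reading frame, and the bases below at its junction side.
V_115622575: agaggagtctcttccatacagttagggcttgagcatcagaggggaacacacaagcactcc
It nonetheless had 51 lines and 24 distinct joins, with at least 1 line in each of the 7 libraries. Its share was 0.0359%, 0.146% and 0.0537% in WT replicates 1, 2 and 3, and 0.0332%, 0.0514%, 0.0383% and 0.0382% in the VH81X-CBEscr/scr replicates 1 to 4. These values lie just above the limit that a count of 0 allows, except in WT replicate 2.

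Use of the segments was uneven. The 3 most used took 28.5% of the segments' joins with libraries weighted equally, the 6 most used 51.1% and the 12 most used 78.8%. V_115470146, a VH7 segment 634 kb upstream, was first, with a mean of 2.01% of V joins over the 7 libraries. It was followed by V_115427676 (VH5, 1.81%), V_115768765 (VH9, 1.73%), V_115364195 (VH2, 1.63%), V_115608445 (VH3, 1.48%) and V_115635402 (VH14, 1.28%), so that the 6 most used came from 6 families. Neighbours in this order overlapped in their ranges over libraries. V_115470146 ranked 6 and V_115427676 ranked 11 among all 158 segments of the locus. Segments of the same family were used to different extents: the VH9 segment V_115768765 averaged 1.73% and V_115676764 averaged 0.303%, with every library of the first above every library of the second. The same held in VH3, where V_115608445 averaged 1.48% and V_115543647 averaged 0.582%, and in VH5, where V_115427676 averaged 1.81% and V_115402886 averaged 0.644%. The signal of V_115608445 was not read, so its exact coding end is not known; the 60 bases that end at its commonest join position, with the cysteine codon in capitals, read as follows.
V_115608445: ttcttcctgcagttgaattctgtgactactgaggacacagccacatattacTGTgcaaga

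**Figure D1:**
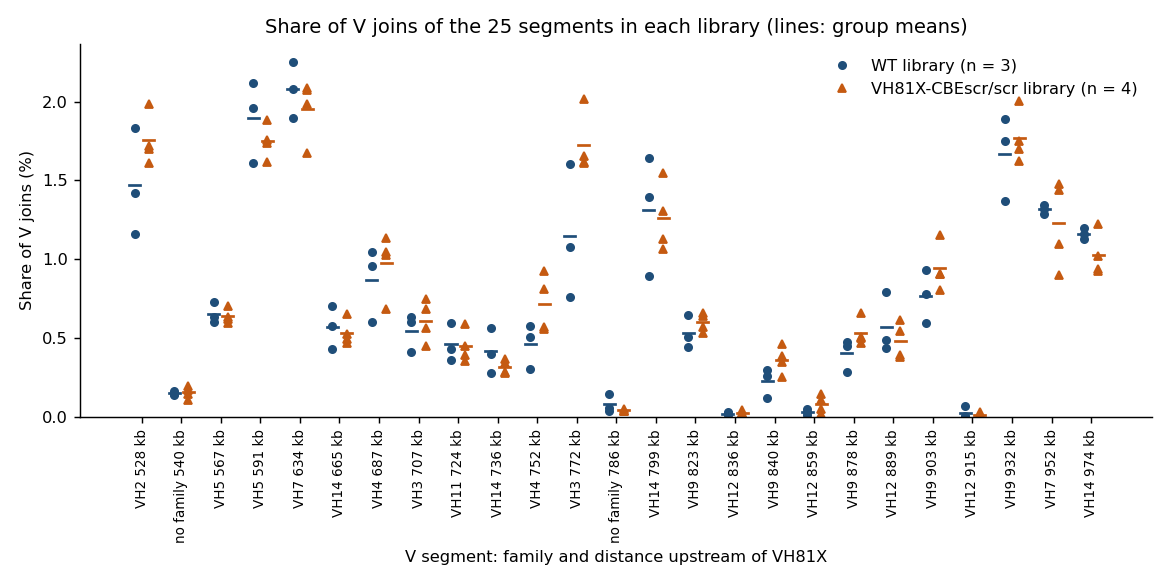
Share of V joins (percent of deletional lines, vertical axis) of each of the 25 segments, ordered by distance upstream of VH81X, with 1 point per library and a line at each group mean. WT libraries are circles and VH81X-CBEscr/scr libraries triangles. The VH3 segment at 772 kb is the 1 segment whose mutant points all lie above its WT points.

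The genotypes were compared to see whether V use this far upstream differs when the element beside VH81X is scrambled. The window's share of V joins was 19.9%, 18.1% and 18.7% in WT replicates 1 to 3, a mean of 18.9% ± 0.884 (SD, n = 3). It was 20.1%, 18.6%, 20.1% and 21.1% in VH81X-CBEscr/scr replicates 1 to 4, a mean of 19.96% ± 1.04 (SD, n = 4). The groups overlapped, and the difference of 0.078 (log2) had p = 0.171 by a two-sided exact permutation test over 35 splits, where 0.0286 is the smallest possible (adjusted p = 0.429 over 5 tests). Leaving VH81X out of the denominator turned the order of the means, 20.9% ± 0.930 (SD, n = 3) in WT against 19.995% ± 1.05 (SD, n = 4), with exact p = 0.4. Under that denominator the part within 100 kb took 14.0% in WT and 22.4% in the mutant. With that part left out as well, the window's means were 24.3% ± 1.41 (SD, n = 3) in WT and 25.8% ± 0.783 (SD, n = 4) in the mutant. The log2 difference was then 0.087 (exact permutation p = 0.143). The window held 1.81 times the lines of the 100 to 500 kb part in WT and 1.80 times in VH81X-CBEscr/scr (exact permutation p = 0.971). Against the part from 1 to 1.5 Mb the WT ratio was 0.768 ± 0.0967 (SD, n = 3) and the mutant ratio 0.858 ± 0.0333 (SD, n = 4), with overlapping groups and exact permutation p = 0.0571 (adjusted p = 0.286). WT replicate 2 was lowest in that ratio at 0.656. Without it the log2 difference of 0.17 became 0.059.

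Of the 23 segments with enough lines to be tested by limma-voom, 1 was higher in VH81X-CBEscr/scr after adjustment over all 129 tested V segments, and none was lower. Of those 129 segments, 3.88% were called higher and 0.775% lower. The called segment was V_115608445, a VH3 segment 772 kb upstream. It took 1.61%, 0.757% and 1.07% of V joins in WT replicates 1 to 3 and 1.65%, 1.61%, 1.62% and 2.02% in VH81X-CBEscr/scr replicates 1 to 4. Every mutant library lay above every WT library, though WT replicate 1 and mutant replicate 2 both rounded to 1.61%. The log2 fold change was 0.61 (SE 0.188, limma adjusted p = 0.0278). This call did not hold without WT replicate 2, where the log2 fold change was 0.38 (limma adjusted p = 0.310). Nor did it hold without WT replicate 3 (0.55), mutant replicate 3 (0.64) or mutant replicate 4 (0.51), or when VH81X was taken out of the library size (0.47). Over distinct joins the log2 fold change was 0.25 and over lines not marked duplicate 0.22, neither of them called. Shares that did not overlap with the mutant above were found in 1 of the 23 tested segments and in 6.2% of all tested segments. With VH81X left out, the VH14 segment V_115810681 was the 1 segment of the 23 whose mutant libraries all lay below the WT ones, against 6.98% of all tested segments in that direction. In the other direction, 0 of 23 lay above, against 3.1%. An unadjusted limma p under 0.05 was reached by 4 of the 23 segments and by 13.2% of all tested segments. The median log2 fold change was 0.06 over the 23 and -0.04 over the 129, and it became -0.08 and -0.18 with VH81X left out.

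The other VH3 segment, V_115543647, averaged 0.547% in WT and 0.609% in VH81X-CBEscr/scr, with overlapping libraries (log2 fold change 0.13, SE 0.247). Of the VH4 segments, V_115588829 took 0.504%, 0.301% and 0.578% of V joins in WT replicates 1 to 3 and 0.813%, 0.557%, 0.567% and 0.922% in mutant replicates 1 to 4. Its groups overlapped, and the log2 fold change of 0.60 (SE 0.255) did not pass (limma adjusted p = 0.218). The more used VH4 segment V_115523700 took 1.04%, 0.602% and 0.954% in WT and 1.14%, 0.686%, 1.03% and 1.04% in mutant libraries. WT replicate 2 was the lowest library for all 4 of these VH3 and VH4 segments.

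The 5 VH9 segments all had positive log2 fold changes, 4 of 5 when VH81X was taken out of the library size, and none passed the test. Of all 129 tested segments 57 had positive values. Their summed share was 3.83%, 3.53% and 3.42% in WT replicates 1 to 3 and 4.26%, 4.12%, 4.06% and 4.36% in VH81X-CBEscr/scr replicates 1 to 4. As a share of all V joins, VH9 was the 1 of 9 families whose mutant libraries all lay above all WT libraries, and 0 of 9 lay wholly below. With VH81X out of the denominator VH9 overlapped, 0 of 9 families lay wholly above, and 3 of 9, VH14, VH5 and VH7, lay wholly below. The family sums were not tested. With VH81X out of the library size, the median log2 fold change over all 129 tested segments was -0.18. V_115768765, the most used of the VH9 segments, took 1.75%, 1.89% and 1.37% in WT and 1.75%, 1.70%, 1.63% and 2.004% in mutant libraries, with a log2 fold change of 0.11 (SE 0.174). V_115739254 took 0.930%, 0.593% and 0.779% in WT and 1.15%, 0.805%, 0.905% and 0.903% in mutant libraries. V_115676764 took 0.261%, 0.119% and 0.295% in WT and 0.249%, 0.463%, 0.345% and 0.388% in mutant libraries. Its log2 fold change of 0.69 (SE 0.347) was the second highest of the 23 tested segments described here and did not pass (limma adjusted p = 0.360).

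The VH12 segment V_115694901, which carries a stop codon, had the highest log2 fold change, 1.25 (SE 0.585, limma adjusted p = 0.273), on 55 lines. It took 0.0474%, 0.00912% and 0.0269% of V joins in WT replicates 1 to 3 and 0.0166%, 0.146%, 0.0460% and 0.108% in mutant replicates 1 to 4. The lowest library of each group lay below the limit that a count of 0 allows, and the groups overlapped. The call was made without mutant replicate 1 (log2 fold change 1.77, limma adjusted p = 0.0454). V_115725671, the 1 VH12 segment with an open frame, averaged 0.519%. V_115671899 and V_115751619, with 21 and 19 lines, were too sparse to test.

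VH14, VH5 and VH7 segments, 8 in all, had negative log2 fold changes, as did 72 of all 129 tested segments, and none of the 8 passed. Over lines not marked duplicate 4 of the 8 were positive, and over distinct joins 2 of the 8. Without VH81X in the denominator, the VH14 sum was 3.82% ± 0.407 in WT (SD, n = 3) and 3.14% ± 0.247 in the mutant (SD, n = 4). The VH5 sum was 2.81% ± 0.319 and 2.39% ± 0.0647, and the VH7 sum 3.75% ± 0.215 and 3.19% ± 0.182, in the same order. As shares of all V joins these 3 families overlapped between genotypes, with WT means of 3.46%, 2.55% and 3.39% and mutant means of 3.13%, 2.38% and 3.18%. V_115635402 (VH14) took 1.39%, 0.894% and 1.65% in WT replicates 1 to 3 and 1.13%, 1.06%, 1.30% and 1.55% in mutant replicates 1 to 4. V_115810681 (VH14) took 1.13%, 1.20% and 1.16% in WT and 1.22%, 0.925%, 1.02% and 0.935% in mutant libraries, with a log2 fold change of -0.19 (SE 0.199). V_115572761 (VH14), which carries a stop codon, took 0.279%, 0.566% and 0.396% in WT and 0.340%, 0.274%, 0.284% and 0.369% in mutant libraries, with a log2 fold change of -0.25 (SE 0.306). Its highest value was that of WT replicate 2, and the groups overlapped. In VH5, V_115427676 took 1.96%, 2.12% and 1.61% in WT and 1.73%, 1.62%, 1.76% and 1.88% in mutant libraries. V_115402886 took 0.599%, 0.730% and 0.631% in WT and 0.631%, 0.703%, 0.621% and 0.592% in mutant libraries, a spread of 1.23 times over all 7, the narrowest among the segments named here. In VH7, V_115470146 took 1.90%, 2.25% and 2.08% in WT and 2.08%, 2.07%, 1.99% and 1.67% in mutant libraries. V_115788124 took 1.32%, 1.34% and 1.29% in WT and 0.896%, 1.10%, 1.44% and 1.48% in mutant libraries, so that the mutant libraries lay on both sides of the WT ones. The VH2 segment V_115364195 took 1.83%, 1.16% and 1.42% in WT and 1.72%, 1.61%, 1.99% and 1.70% in mutant libraries, and its log2 fold change was 0.25 (SE 0.178; limma adjusted p = 0.696). The lowest log2 fold change, -0.57 (SE 0.560, limma adjusted p = 0.805), was that of V_115622575, the segment with no V reading frame, and rests on its high value in WT replicate 2.

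**Figure D2:**
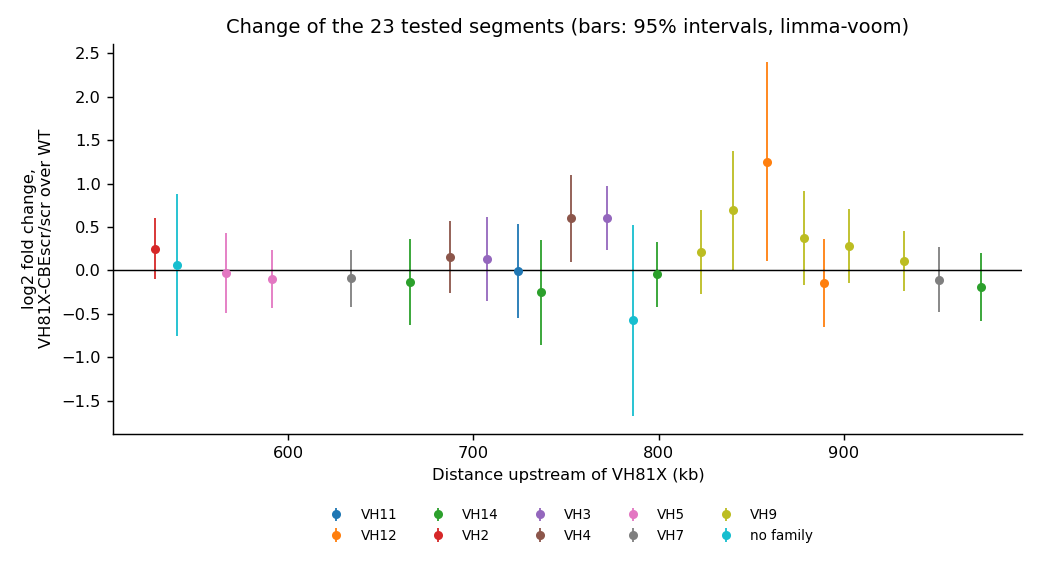
Log2 fold change of VH81X-CBEscr/scr (n = 4) over WT (n = 3) by limma-voom (vertical axis) against the distance upstream of VH81X in kb, for the 23 tested segments coloured by family, with 95% intervals as bars. The 5 VH9 points lie above 0, and the 8 VH14, VH5 and VH7 points lie below 0 with bars that cross it; over lines not marked duplicate, not plotted, 4 of these 8 turn positive, and with VH81X taken out of the library size 1 of the 5 VH9 values turns negative.

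Segments with a broken reading frame were little used, and fewer of their joins were in frame than at open segments. In 19 segments the V frame was called open, and these took 96.6% of the segments' lines. A call of open needed the cysteine codon, a framework motif with a tryptophan, and no stop codon in the stretch searched. That stretch ran up to the cysteine and left out the first codons read. In 5 the frame was called broken: V_115572761 and V_115694901 by a stop codon, and V_115671899 and V_115751619 by the loss of the cysteine codon. In V_115376250 the tryptophan motif was missing. No stop codon was found in its searched stretch, and no frame break was located. The broken segments took 3.09% of lines and ranked from 19 to 25 in use. Joins were called in frame where the distance from the V cysteine codon to the JH4 tryptophan codon was a multiple of 3, so that a random join is in frame in 33.3% of cases. Over distinct joins, 65.5% of 9459 at open segments were in frame (95% Wilson interval 64.6% to 66.5%), against 30.3% of 300 at broken segments (25.4% to 35.8%). Per library the open share exceeded the broken one by 34.5 percentage points ± 4.94 (SD, n = 7), from 27.7 to 40.9, and it was higher in 7 of 7 libraries. The two-sided exact sign-flip permutation test gave p = 0.0156, the smallest possible, and an adjusted p of 0.0234 over 3 tests. In-frame joins of the segments made up 68.5%, 62.02% and 63.0% of readable lines in WT replicates 1 to 3, and 54.7%, 63.7%, 66.5% and 67.3% in VH81X-CBEscr/scr replicates 1 to 4. The genotypes overlapped (64.5% ± 3.52, n = 3, against 63.0% ± 5.77, n = 4, exact permutation p = 0.771), and mutant replicate 1 was the lowest library. Over distinct joins the window exceeded the part from 1 to 1.5 Mb by 8.03 percentage points ± 3.06 (SD, n = 7), in 7 of 7 libraries (exact p = 0.0156, adjusted p = 0.0234). It exceeded the 100 to 500 kb part by 3.75 points ± 2.76 (SD, n = 7), in 6 of 7 libraries (exact p = 0.0312). That difference did not pass when any 1 of 6 libraries was left out, with values from 3.13 to 4.60 over all 7 omissions, and over all lines it was 3.01 points (exact p = 0.141). The 3 parts were not matched for their number of broken segments.

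Not every open segment had a high in-frame share. Of the 19, 14 lay between 65.0% and 71.5%, 2 between 50% and 60%, and 3 below 50%, singled out here after their values were seen and so given with no test. The VH11 segment V_115560450 had 33.9% of 192 distinct joins in frame, with libraries from 21.4% to 50%, a median of 33.3%, and 12 to 38 joins in each. The excluded VH11 segment at 115623228, which shares 98.3% of its bases, had 33.6% of 396, with libraries from 24.6% to 42.7%. V_115676764 (VH9) had 34.9% of 166 in frame, with libraries from 31.2% to 44.0% on 8 to 33 joins each, whereas the other 4 VH9 segments had 65.4% to 70.7%. V_115588829 (VH4) had 45.8% of 319 in frame, with libraries from 26.2% to 62.8%, whereas its close copy V_115523700 had 71.5% of 526, with libraries from 64.2% to 80.7%. The intervals of V_115560450 and V_115676764 overlapped that of the pooled broken segments, whereas that of V_115588829 (40.4% to 51.3%) lay above it and below those of the open segments over 50%. The first codons read were not searched for stop codons, and a frame break was looked for only through the framework tryptophan motif. Within these limits neither was found in these 3. The VH9 and VH4 segments among them were used less than their copies: V_115676764 was the least used VH9 segment (0.303% on average), and V_115588829 averaged 0.606% against 0.927% for V_115523700.

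The 240 bases that end with the cysteine codon are shown for the VH9 pair and then for the VH4 pair, since the members of each pair differ in their in-frame share and at only 7 of the 240 bases. Capitals mark the bases that differ within a pair.
V_115659508: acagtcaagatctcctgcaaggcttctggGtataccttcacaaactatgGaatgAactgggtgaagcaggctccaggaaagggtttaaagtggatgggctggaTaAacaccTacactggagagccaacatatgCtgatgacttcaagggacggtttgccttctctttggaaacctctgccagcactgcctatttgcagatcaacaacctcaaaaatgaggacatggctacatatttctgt
V_115676764: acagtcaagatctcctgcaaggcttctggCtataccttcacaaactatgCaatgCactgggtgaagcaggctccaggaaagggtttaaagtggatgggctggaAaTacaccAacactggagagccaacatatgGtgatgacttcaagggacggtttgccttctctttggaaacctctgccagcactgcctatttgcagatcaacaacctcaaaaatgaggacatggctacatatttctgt
V_115523700: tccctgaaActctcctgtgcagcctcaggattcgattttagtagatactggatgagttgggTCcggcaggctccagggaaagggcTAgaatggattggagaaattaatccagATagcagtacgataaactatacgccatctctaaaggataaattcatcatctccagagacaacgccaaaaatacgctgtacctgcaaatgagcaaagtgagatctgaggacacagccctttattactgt
V_115588829: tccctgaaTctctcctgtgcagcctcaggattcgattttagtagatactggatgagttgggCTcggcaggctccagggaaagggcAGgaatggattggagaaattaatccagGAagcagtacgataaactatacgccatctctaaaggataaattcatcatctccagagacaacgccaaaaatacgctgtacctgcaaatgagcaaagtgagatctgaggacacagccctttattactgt
In the VH9 pair, V_115659508 had 70.03% of 287 distinct joins in frame and V_115676764 34.9% of 166. The share of the first ranged from 58.1% to 77.4% over libraries, above every library of the second. In the VH4 pair the libraries did not overlap either, though narrowly, the highest of V_115588829 being 62.8% and the lowest of V_115523700 64.2%.

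**Figure D3:**
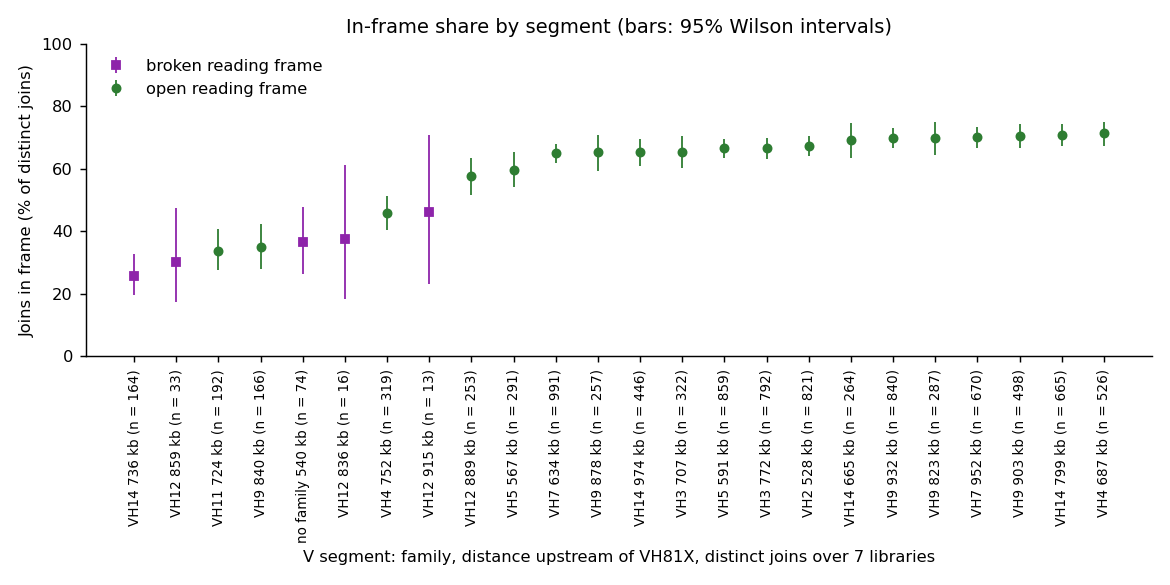
Percent of distinct joins in frame (vertical axis) for the 24 segments with a V frame, ordered by that share, over all 7 libraries with 95% Wilson intervals as bars. Squares are segments with a broken frame and circles those with an open one, and the VH11 and VH9 (840 kb) circles, at 33.9% and 34.9%, lie near the squares, with the VH4 (752 kb) circle at 45.8% between these and the other circles.

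The coding ends of the segments were trimmed to different extents. The exact coding end was known for the 12 segments whose signal was read. The share of distinct joins that kept the full end ran from 16.6% of 999 at V_115470146 (VH7) to 69.2% of 876 at V_115427676 (VH5). The VH7 segment, the most used of the 25, lost 2 bases at the median, and 24.6% of its joins had lost 4 or more. Among VH9 segments, V_115714798 and V_115739254 kept the full end in 68.0% and 65.6% of distinct joins, and V_115768765 in 46.5%. In VH14, V_115635402 kept the end in 46.1% and V_115810681 in 35.1%, and the VH11 segment V_115560450 did so in 26.9%. In VH5, V_115402886 kept it in 44.7%, below the 69.2% of V_115427676. Added bases that happen to match the trimmed ones count as kept, and those matching the signal appear as a match past the end, seen in 1.95% to 9.17% of joins. Over the 12 segments, full ends made up 44.4% ± 2.40 of distinct joins in WT (SD, n = 3) and 46.4% ± 1.17 in the mutant (SD, n = 4), a difference that was not tested. The median number of bases between the V and JH4 parts of a read, D bases and added bases together, was 17 in all 7 libraries. Per segment this median ran from 16 to 18.5 bases.

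**Figure D4:**
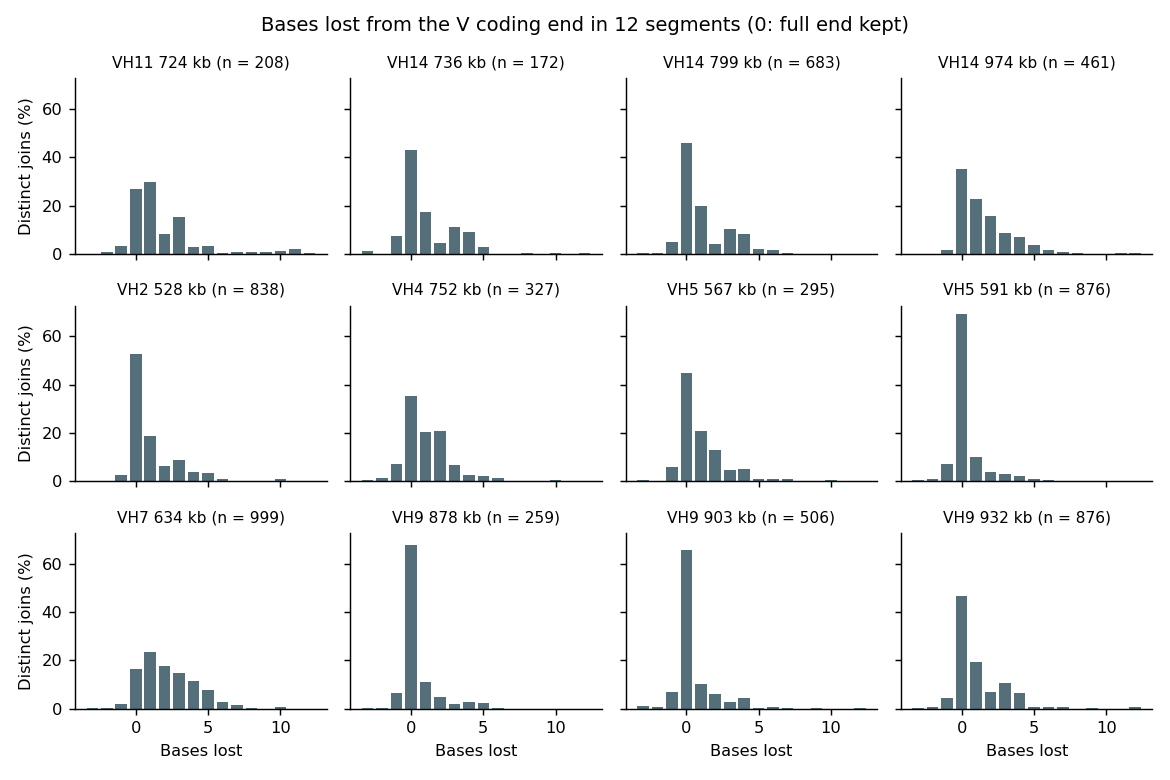
Bases lost from the V coding end (horizontal axis, 0 for a full end, negative where the read matched past the end) as a percent of distinct joins (vertical axis) in the 12 segments with a known coding end, pooled over 7 libraries. The VH7 segment at 634 kb has a broad distribution with 16.6% at 0, and the VH5 segment at 591 kb a sharp one with 69.2% at 0.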

How the data were processed

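HTGTS junctions were read from 7 deposited tables of 1 line per sequenced read, in which lines marked as duplicates were kept, per the file headers and values. The submitters' processing notes name Bowtie2 and mm9 without versions, and other steps are not given in the sources used here. The authors' tables hold positions, strands and read coordinates and no count column, so lines were counted here and no count model for deposited counts was used. The segments, families and tests were chosen with earlier results of these data known. Segment sequences are consensus sequences of the reads (at most 330 bases), and no genome was used. Segments were compared with each other by the number of changed, added or lost bases, and reads were matched to segments with bwa 0.7.19. A table of genes of another assembly, GRCm38.p6, did not match the spacing of the window, so its gene names were not used for the segments.

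Lines per segment were compared by limma-voom (limma 3.58.1, R 4.3.3) with the V joins as library size, over segments with a mean of at least 10 lines in either group, and p-values were adjusted by Benjamini-Hochberg with a threshold of 0.05. On simulated data with the real means, 82.0% of 2-fold and 98.2% of 4-fold changes were recovered over 20 draws with a median of 128 tested segments, and 5.86% of calls were false. The simulated spread between libraries was assumed, the same for every segment and library, and not estimated from these data. Single values were compared by exact permutation tests over all splits, and differences within libraries by exact sign flips. Wilson intervals used SciPy 1.17.1. Values per library are given for the 12 most used segments, those called, and the 3 highest and 3 lowest log2 fold changes. The open and broken frames and the in-frame comparisons between parts of the locus were added after the data were seen. Alternatives were other denominators, distinct joins, lines not marked duplicate, lines matching their own segment best, other filters on low counts, a replicate block and leaving out each library. Numbers of replicates did not pair the libraries: deviations of same-numbered libraries correlated at -0.28, -0.0073 and 0.12 over 129 segments. Libraries shared at most 0.101% of distinct joins, so none repeats another. Figures used Python 3.11.15, pandas 2.3.3 and matplotlib 3.10.9.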

Additional observations from a re-analysis of the deposited data

Results flagged for a closer look

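V_115608445, the VH3 segment 772 kb upstream, took 2.02% of V joins in VH81X-CBEscr/scr replicate 4, apart from the other 3 mutant libraries at 1.61% to 1.65%. The gap to the nearest library was 0.899 of the group's range, above Dixon's critical value for 4 samples. This was the 1 group flagged of 20 checked, and chance alone marks about 1 in 20 groups in this way. Without this library the log2 fold change of the segment was 0.51 (limma adjusted p = 0.261).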

How the results depend on the processing

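Of the 16 segments with values per library, 231 alternative values of the log2 fold change were computed, and 203 kept direction and side of the threshold. V_115608445 kept its direction in 15 of 15 alternatives and lost its call in 9. The number of called segments in the window was 0 if VH81X was taken out of the library size, over lines not marked duplicate, over distinct joins and over lines matching their own segment best, and 0 to 2 with 1 library left out. With the replicate number as a block, which does not pair these libraries, it was also 0, and 2 of the 129 segments of the locus were called. The log2 difference of the ratio to the 1 to 1.5 Mb part was 0.17 over best-matching lines, as over all lines, with an unadjusted exact permutation p of 0.0286 in place of 0.0571 (adjusted value not computed). Signs turned as follows, and the causes were not tested. The log2 difference of the window's share was -0.062 with VH81X left out, though 0.087 with the segments within 100 kb left out as well. That of the ratio to the 100 to 500 kb part was 0.087 over lines not marked duplicate and -0.090 to 0.051 with 1 library left out. The in-frame difference between genotypes ran from -2.94 to 1.26 points with 1 library left out. Without a turn of sign, the window's in-frame excess over the 100 to 500 kb part was 3.01 points over all lines and 1.99 over lines not marked duplicate, neither passing, and 3.13 to 4.60 with 1 library left out. The excess of open over broken segments was 28.7 to 39.2 points in all 10 alternatives, each past the threshold.

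Over lines not marked duplicate the log2 fold change was 0.086 for V_115402886, 0.079 for V_115572761, 0.0023 for V_115635402 and 0.053 for V_115788124. Over distinct joins it was 0.11 for V_115402886, -0.041 for V_115523700 and 0.084 for V_115572761. V_115768765 was at -0.033 with VH81X left out, and V_115402886 at 0.00081 with the replicate block. With 1 library left out the range was -0.090 to 0.043 for V_115402886, -0.054 to 0.31 for V_115523700, -0.25 to 0.12 for V_115635402, -0.030 to 0.19 for V_115768765 and -0.22 to 0.028 for V_115788124.

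Exact tests with 1 library left out cannot pass 0.05 between genotypes, and segments with fewer than about 60 lines, such as V_115694901, lie near the floor in single libraries.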
